A study of Mus musculus with 8 samples.

Results

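The ZIC genes encode transcription factors that bind DNA through C2H2 zinc fingers, and 4 of them were followed here by name: Zic1, Zic2, Zic4 and Zic5. The 4 genes are 4 of 24921 gene symbols with counts. RNA was sequenced in 8 libraries from V6.5, a mouse embryonic stem (ES) cell line. The OCT4-FKBP line carries OCT4 as a fusion with FKBP, a tag through which the protein can be degraded, and was treated for 24 h with a dTAG compound (dTag9 in the labels) or with DMSO as the vehicle. The untagged V6.5 line, called WT, was sampled after LIF had been withdrawn for 5 days or with normal LIF, the cytokine that holds mouse ES cells in self-renewal. Each of the 4 groups had 2 libraries. Per the labels' protocol all cells were grown on gelatin in 2i medium, and the labels do not say whether the 2i inhibitors stayed on during LIF withdrawal or whether the tagged line is 1 clone. No untagged cells received dTAG, so the compound and the loss of OCT4 cannot be told apart.

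ZIC proteins share their zinc finger region with the GLI and GLIS families and are best known from the developing nervous system. Zic1 and Zic4 are active in the dorsal neural tube and the cerebellum, Zic2 in the forebrain and the neural plate, and Zic5 in the neural folds, where it is needed for neural crest. In ES cells Zic2 is found at enhancers together with chromatin regulators, and ZIC factors are known for the step from naive to formative pluripotency, when ES cells leave the ground state. The genes lie as head-to-head pairs: Zic1 and Zic4 are neighbours on mouse chromosome 9, and Zic2 and Zic5 are neighbours on mouse chromosome 14.

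Because the proteins are alike, the transcripts were first compared over the length of a read, 40 bases in this study. A stretch of coding sequence in which the 4 transcripts are alike is shown because it holds the longest run shared by members, and the bases by which reads there differ. It was found from the longest runs that Zic1 shares with Zic2 and with Zic4, is given 5′ to 3′ from the GENCODE M21 transcripts on GRCm38, and has the bases identical in all 4 in capitals.
Zic1: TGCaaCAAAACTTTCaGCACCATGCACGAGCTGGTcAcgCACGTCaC
Zic2: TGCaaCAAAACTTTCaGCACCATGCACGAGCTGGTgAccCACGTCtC
Zic4: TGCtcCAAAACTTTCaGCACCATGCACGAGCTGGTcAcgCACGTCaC
Zic5: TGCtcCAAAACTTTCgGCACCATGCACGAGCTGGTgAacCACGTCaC
Over these 47 bases, counted on Zic1 from position 1122 to 1168 of its transcript, 40 were the same in all 4 genes. Zic4 differed from Zic1 at 2 bases, Zic2 at 3 and Zic5 at 6. The longest exact run was the 42 bases shared by Zic1 and Zic4, which holds 3 different reads of 40 bases, against a run of 35 bases for Zic1 and Zic2 and of 26 for Zic2 and Zic5. None of the 2401 stretches of 40 bases in the Zic2 transcript occurred in a transcript of another gene. In Zic1, 27 of 2772 did, all in Zic4: 3 on the same strand, and 24 on the opposite strand. In Zic5, 449 of 4728 (9.5%) did, none of them in the other members. A read could therefore match more than 1 member only over short stretches of Zic1 and Zic4. Each member was counted through a single RefSeq accession.

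The 4 members differed widely in level. Per length, as counts scaled to library size (CPM) per kilobase of transcript, Zic2 had the highest level in every library, with a mean of 9.57 ± 0.931 in dTAG, 39.7 ± 0.285 in DMSO, 101 ± 3.3 without LIF and 23.9 ± 5.14 with LIF (SD, n = 2 here and below). Zic5 followed in 3 of the 4 groups, at 2.29 ± 0.0524 in DMSO, 4.91 ± 0.493 without LIF and 2.03 ± 0.0646 with LIF. In dTAG libraries Zic1 stood second instead, at 4.15 ± 0.0946, above Zic5 at 0.438 ± 0.192. Over all 8 libraries Zic2 was covered by 8018 reads, Zic5 by 869, Zic1 by 252 and Zic4 by 13, so precision falls in that order.

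**Figure D1:**
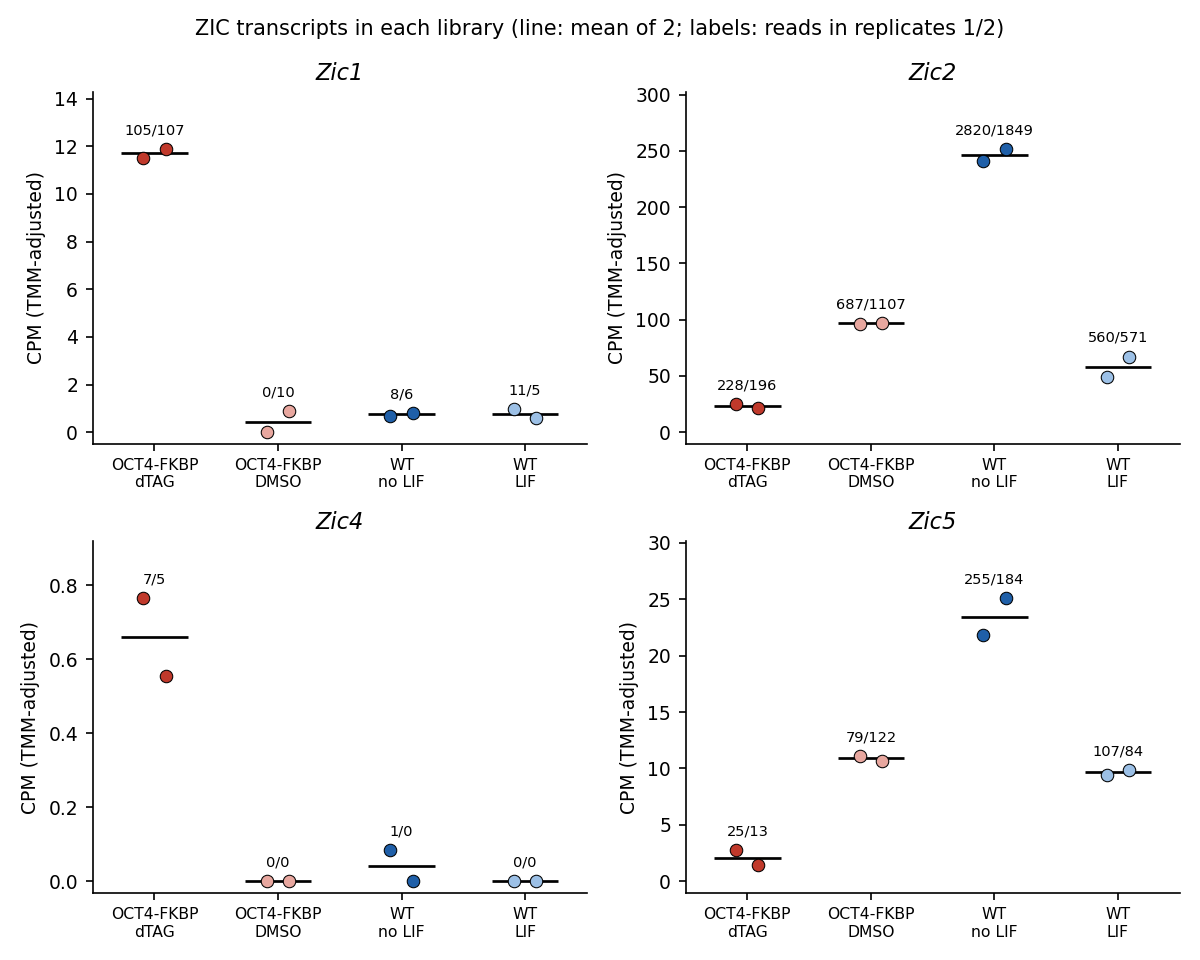
CPM, scaled to the TMM-adjusted library size, of each member in each library, with the mean of the 2 libraries as a line and the read counts of replicates 1 and 2 above the points. Zic2 and Zic5 are lowest in dTAG and highest without LIF, whereas Zic1 stands at 11.5 and 11.9 CPM in dTAG and under 1 CPM in all other libraries.

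The first comparison, dTAG against DMSO, asked how the genes changed within 24 h of OCT4 degradation. Zic2 and Zic5 fell and Zic1 rose. Pou5f1, the gene for OCT4, had 84.6 and 90.2 CPM in dTAG libraries and 77.5 and 77.8 CPM in DMSO libraries (edgeR adjusted p = 0.18). Since the compound acts on the protein, the transcript does not check the treatment, and how reads shared by the gene's 2 accessions were counted is not given. In this comparison 40.5% of the 10311 tested genes passed an adjusted p of 0.05, 20.1% as higher and 20.3% as lower. The libraries of the groups did not overlap for 34.8% of genes with dTAG above and for 35.4% with dTAG below.

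Zic2 had 228 and 196 reads in the dTAG libraries, or 25.0 and 21.7 CPM, against 687 and 1107 reads in the DMSO libraries, or 96.4 and 97.4 CPM. The libraries of the groups did not overlap. The log2 fold change was -2.05 (SE 0.11), a 4.15-fold lower level in dTAG (edgeR quasi-likelihood test, adjusted p = 2.1e-14). Of all tested genes, 322 had a lower log2 fold change.

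Zic5 had 25 and 13 reads in dTAG, or 2.74 and 1.44 CPM, against 79 and 122 reads in DMSO, or 11.1 and 10.7 CPM. Again no dTAG library reached a DMSO library, although the dTAG libraries differed more from each other. Zic5 was 5.17-fold lower in dTAG (log2 fold change -2.37, SE 0.24, edgeR adjusted p = 6.5e-09). In bulk RNA, fewer cells that hold a transcript and less transcript per cell cannot be told apart.

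Zic1 had 105 and 107 reads in dTAG, or 11.5 and 11.9 CPM, against 0 and 10 reads in DMSO, or 0 and 0.88 CPM. Both dTAG libraries lay far above both DMSO libraries. The log2 fold change was 4.41 (SE 0.38, edgeR adjusted p = 3.6e-10), and 33 of the tested genes had a higher one. The gene passed the filter on low counts through the dTAG libraries alone. The summed reads, 212 in dTAG against 10 in DMSO, gave a 21.3-fold ratio (exact 95% interval, 11.3 to 45.0), which covers counting error only. The size of the rise rests on few DMSO reads: without DMSO replicate 2 that group has 0 reads. Zic1 was then 27.4-fold higher in dTAG against a floor of 3 reads in the remaining library, leaving out counting error in dTAG. Without DMSO replicate 1 the log2 fold change was 3.71.

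Zic4, the neighbour of Zic1, had 7 and 5 reads in dTAG and 0 in both DMSO libraries. It did not pass the filter and was not tested. Against a floor of 3 reads over the DMSO group, its 12 reads in dTAG stood 4.01-fold higher. That value leaves out the counting error of the dTAG reads. With no filter on low counts its adjusted p in edgeR was 0.012, and DESeq2 gave it no adjusted p. Both genes of the chromosome 9 pair thus had their highest level in dTAG, with Zic1 at 11.7 ± 0.266 CPM and Zic4 at 0.66 ± 0.15 CPM.

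The annotated start regions of the pair that was read in dTAG cells, and of Zic5, are shown for their difference in base composition. These are 250 bases before to 50 bases after the start site from RefSeq on GRCm38.p6, for the 3 members matched by symbol, 5′ to 3′ on the gene's strand with CpG dinucleotides in capitals. The windows are chr9:91365719-91366018 on the minus strand for Zic1, chr9:91368722-91369021 on the plus strand for Zic4 and chr14:122465609-122465908 on the minus strand for Zic5.
Zic1: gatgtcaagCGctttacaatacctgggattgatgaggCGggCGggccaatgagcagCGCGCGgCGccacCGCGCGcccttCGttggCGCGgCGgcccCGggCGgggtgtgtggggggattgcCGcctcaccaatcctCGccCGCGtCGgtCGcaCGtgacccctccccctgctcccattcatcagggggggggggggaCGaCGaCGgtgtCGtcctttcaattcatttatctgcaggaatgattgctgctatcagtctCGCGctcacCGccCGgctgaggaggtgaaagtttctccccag
Zic4: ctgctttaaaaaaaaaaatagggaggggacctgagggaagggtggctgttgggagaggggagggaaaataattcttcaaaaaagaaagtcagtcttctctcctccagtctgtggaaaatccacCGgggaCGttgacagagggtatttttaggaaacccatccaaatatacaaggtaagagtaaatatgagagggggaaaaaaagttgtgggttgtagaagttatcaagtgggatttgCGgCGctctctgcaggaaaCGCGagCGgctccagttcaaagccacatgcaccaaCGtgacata
Zic5: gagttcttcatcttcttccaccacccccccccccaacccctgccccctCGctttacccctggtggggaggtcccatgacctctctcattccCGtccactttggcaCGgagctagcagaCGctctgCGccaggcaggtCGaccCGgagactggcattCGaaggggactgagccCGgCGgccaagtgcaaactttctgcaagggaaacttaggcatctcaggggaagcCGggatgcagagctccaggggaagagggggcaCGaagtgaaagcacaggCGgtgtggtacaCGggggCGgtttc
The start sites of Zic1 and Zic4 lie 3204 bases apart and point away from each other. The Zic1 window held 31 CpG dinucleotides and was 65.3% G and C, and 89.4% of the 32851 promoter windows in the table held fewer CpG dinucleotides. The Zic4 window held 8 and was 46.0% G and C, close to the table's median of 7, and the Zic5 window held 15. On both strands, the octamer ATGCAAAT, the motif TTCNNNGAA, AACAAT and TATAAA had no match in the 3 windows. Of all windows, 1.74%, 8.3%, 10.7% and 13.6% hold them in that order. CCAAT occurred at 2 places in the Zic1 window (37.4% of all windows hold it) and CACGTG at 1 (7.15% of all windows). These are matches of letters within 300 bases only.

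The second comparison, no LIF against LIF, asked how the genes changed over 5 days of LIF withdrawal in WT cells. Zic2 and Zic5 rose, and Zic1 was read at under 1 CPM. Pou5f1 was 2.02-fold lower without LIF, at 205 and 170 CPM against 425 and 336 CPM with LIF (edgeR adjusted p = 3.5e-11). Here 68.4% of tested genes passed, 34.0% as higher and 34.4% as lower. The libraries did not overlap for 40.3% of genes with no LIF above and for 41.2% with no LIF below.

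Zic2 had 2820 and 1849 reads without LIF, or 241 and 252 CPM, against 560 and 571 reads with LIF, or 49.4 and 67.2 CPM. The groups did not overlap, and the libraries with LIF differed from each other by more than those without it. Zic2 was 4.27-fold higher without LIF (log2 fold change 2.09, SE 0.09, edgeR adjusted p = 4.3e-17), and 949 tested genes had a higher log2 fold change.

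Zic5 had 255 and 184 reads without LIF, or 21.8 and 25.1 CPM, against 107 and 84 reads with LIF, or 9.45 and 9.88 CPM. It was 2.41-fold higher without LIF (log2 fold change 1.27, SE 0.15, edgeR adjusted p = 4.6e-08), with no overlap between the groups.

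Zic1 had 8 and 6 reads without LIF and 11 and 5 reads with LIF, or 0.751 ± 0.0956 and 0.78 ± 0.271 CPM. The groups overlapped, and the test did not pass (log2 fold change -0.13, SE 0.61, edgeR adjusted p = 0.86). The reads stood at a ratio of 0.921 (exact 95% interval, 0.416 to 2.01). By counting error alone, ratios within that range are compatible with the reads, and the spread between libraries is not in it. Zic4 had 1 read without LIF, in replicate 1, and 0 with LIF, which gives no fold.

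**Figure D2:**
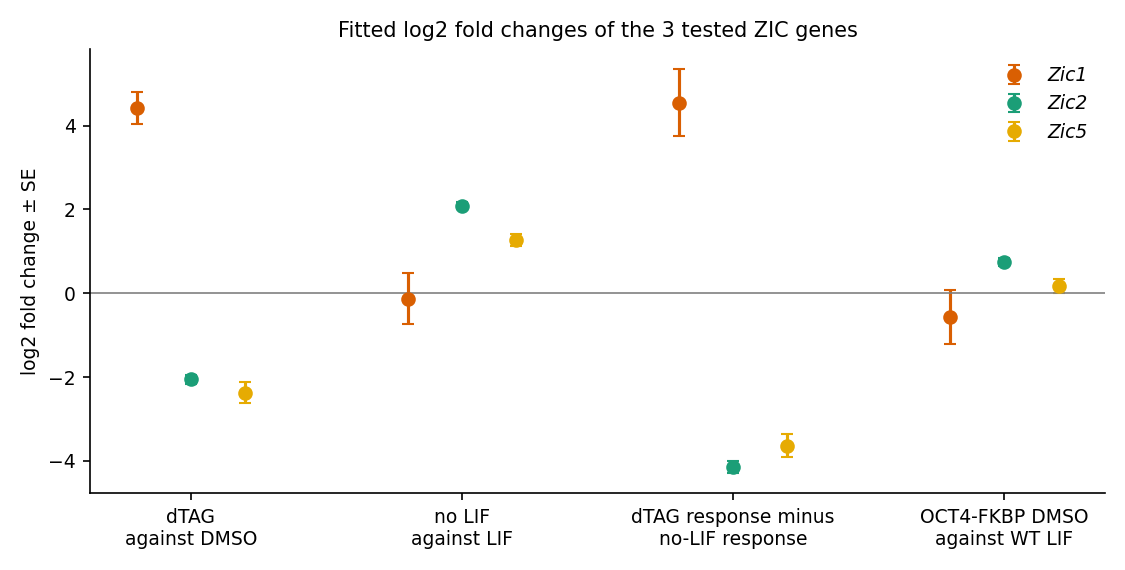
Fitted log2 fold changes with their standard errors for the 3 tested members in the 4 contrasts. Zic2 and Zic5 lie below 0 for dTAG against DMSO and above 0 for no LIF against LIF, and Zic1 lies at 4.41 and at -0.13.

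The responses of the lines were then compared with each other, as the dTAG response minus the no-LIF response in the same fit. The 2 responses have separate control libraries. Of all tested genes 55.0% passed, 28.6% with a higher and 26.4% with a lower dTAG response, and Zic1 was tested only because it passed the count filter through dTAG. The difference was 4.54 for Zic1 (log2, SE 0.80, edgeR adjusted p = 3e-05), -4.15 for Zic2 (SE 0.14, edgeR adjusted p = 1.2e-18) and -3.64 for Zic5 (SE 0.28, edgeR adjusted p = 2.8e-11). The line, the treatment and the time differ together between the responses and cannot be told apart. Among all tested genes, 486 (4.71%) were called lower in dTAG and higher without LIF, as Zic2 and Zic5 were. Another 510 genes (4.95%) were called higher in dTAG and not called for LIF, as Zic1 was.

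**Figure D3:**
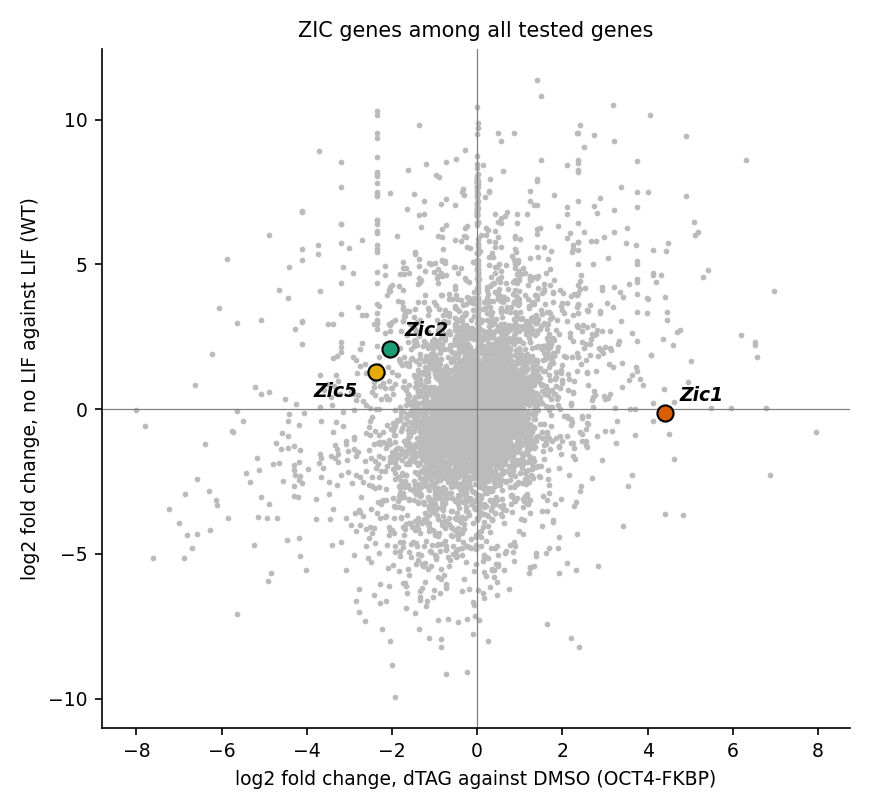
Log2 fold change in dTAG against DMSO (x axis) and in no LIF against LIF (y axis) of all 10311 tested genes in grey, with the 3 tested members marked. Zic2 and Zic5 lie side by side in the upper left area, and Zic1 lies at the right near 0 on the y axis.

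The tagged line in DMSO was set against the WT line with LIF to see the starting levels. The tag, the line's history and DMSO cannot be told apart there, and both groups also serve as controls above. Pou5f1 itself was 4.91-fold lower in DMSO than with LIF, by a log2 fold change of -2.30 (SE 0.09, edgeR adjusted p = 3.5e-16). The limit given above on how Pou5f1 reads were counted applies to this fold too. Zic2 was 1.68-fold higher in DMSO, at 96.9 ± 0.694 CPM against 58.3 ± 12.5 CPM with LIF (log2 fold change 0.75, SE 0.09, edgeR adjusted p = 5.8e-07), where 40.6% of all genes passed, 18.5% as higher and 22.1% as lower. Both DMSO libraries lay above both LIF libraries for Zic2 and Zic5, as for 30.8% of all genes, while 36.8% lay below. Zic5 had 10.9 ± 0.25 CPM in DMSO and 9.66 ± 0.308 CPM with LIF, and its test did not pass (log2 fold change 0.17, SE 0.17, edgeR adjusted p = 0.45). Its reads stood at a ratio of 1.11 (exact 95% interval, 0.903 to 1.36). Zic1 had 10 reads in DMSO and 16 with LIF (log2 fold change -0.57, SE 0.65, edgeR adjusted p = 0.52), and that value turned to 0.16 without DMSO replicate 1. Without DMSO replicate 2, where the group has 0 reads, the fit gave -5.90 (edgeR adjusted p = 0.016), so the direction rests on single libraries. Across the groups, Zic2 was thus ordered dTAG, LIF, DMSO and no LIF from low to high. Zic5 was lowest in dTAG and highest without LIF, with LIF and DMSO between them. The step between dTAG and WT with LIF crosses the lines and was not tested.

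The make-up of the family's summed level is given as a description. Summed over the 4 members, the level per length was 15.2 and 13.7 CPM per kilobase in dTAG against 41.9 and 42.5 in DMSO, and 104 and 109 without LIF against 22.6 and 29.8 with LIF. Zic2 supplied 66.3% ± 1.46 of this sum in dTAG and 94.2% ± 0.338 in DMSO, and 95.1% ± 0.298 without LIF and 91.0% ± 1.87 with LIF. Zic1 supplied 26.9% and 30.9% in the dTAG libraries, against 0% and 0.737% in the DMSO libraries. In the WT line the share of Zic1 was 0.235% and 0.267% without LIF and 1.53% and 0.702% with LIF. No test was run on these shares.

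**Figure D4:**
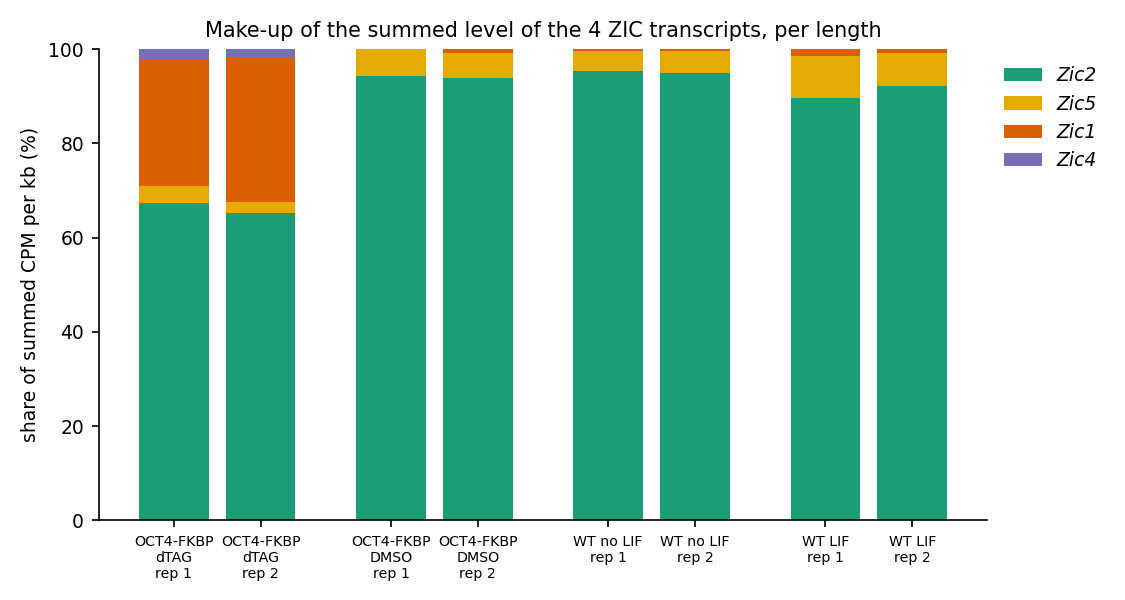
Share of each member in the summed CPM per kilobase of the 4 members, for each library. Zic2 makes up most of every bar, and Zic1 supplies 26.9% and 30.9% in the dTAG libraries only.

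Zic2 and Zic5 moved in the same direction in both treatments, and their share of the pair's reads was compared. Of the reads that fell on either gene, Zic5 took 9.88% and 6.22% in dTAG against 10.3% and 9.93% in DMSO. Summed over the libraries this is 8.23% (95% Wilson interval 6.05 to 11.1) in dTAG and 10.1% (8.83 to 11.5) in DMSO, intervals that overlap. In the WT line Zic5 took 8.29% and 9.05% without LIF against 16.0% and 12.8% with LIF. The sums are 8.59% (7.86 to 9.39) without LIF and 14.4% (12.7 to 16.4) with LIF, so Zic2 gained more than Zic5 over LIF withdrawal, beyond counting error. No test over libraries was run on these shares.

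Between Zic5 and Zic2 the RefSeq table places a long noncoding transcript, 2610035F20Rik, which was named after its values were seen. It was thinly read, with 58 reads in all. It had 3 and 1 reads in dTAG and 7 and 9 in DMSO, and 20 and 14 without LIF and 2 and 2 with LIF. Like Zic2 it was highest without LIF, while its dTAG and LIF libraries overlapped. Without LIF it was 8.38-fold higher than with LIF (log2 fold change 3.07, SE 0.60, edgeR adjusted p = 6.6e-05). For dTAG against DMSO the log2 fold change was -1.92 (SE 0.71, edgeR adjusted p = 0.033), a call lost in 8 of 14 alternatives, with adjusted p from 0.024 to 0.26. For DMSO against WT with LIF it was 2.03 (SE 0.70, edgeR adjusted p = 0.023), and leaving out DMSO replicate 1 or 2 or WT LIF replicate 1 or 2 each ended that call (adjusted p = 0.098, 0.074, 0.17 and 0.066). Of the genes nearest to the pair on its outer sides, Gm5089 had 7 reads and Pcca, a subunit of propionyl-CoA carboxylase with 2 accessions, had 22 reads over all libraries, too few to test. The 2 nearest genes on each side of Zic1 and Zic4 are noncoding and were not analysed here.

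**Figure D5:**
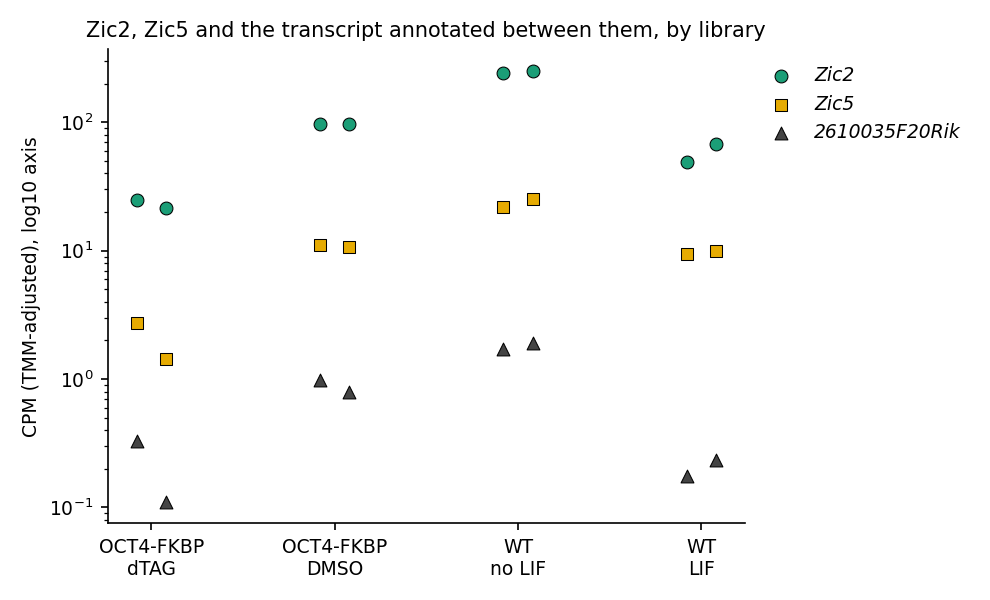
CPM on a log10 axis of Zic2, Zic5 and 2610035F20Rik in each library. The 3 transcripts are highest without LIF, and 2610035F20Rik rests on 1 to 20 reads per library.

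By Pearson correlation of log2 CPM over the 8 libraries, Zic2 and Zic5 were close (r = 0.95), while Zic1 had negative values with Zic2 (r = -0.710) and Zic5 (r = -0.807). Zic1 had a mean of 11.7 CPM in dTAG, against 0.44 in DMSO, 0.751 without LIF and 0.78 with LIF. Its correlations therefore rest mainly on the dTAG libraries. The 8 points fall into 4 groups of 2, share their libraries and lines, and serve as a description. Of 7048 genes with a mean of at least 5 CPM, those most like Zic2 were Rrn3, an initiation factor of RNA polymerase I (r = 0.993), Cracd, a regulator of actin capping (r = 0.987), and Rsl1d1, a nucleolar protein gene (r = 0.987). Rrn3 moved over a small range, with 367 CPM in dTAG, 446 in DMSO, 509 without LIF and 414 with LIF. Zic5 was most like Eprn, a noncoding RNA of early development also called Ephemeron (r = 0.994), Ppp1r26, a regulator of protein phosphatase 1 (r = 0.987), and Utf1, a chromatin factor of pluripotent cells (r = 0.983). Eprn had 2.53 CPM in dTAG and 13.7 in DMSO, and 35.0 without LIF and 13.7 with LIF. Zic1 was most like Tep1, a telomerase-associated protein gene (r = 0.957), Ube2d3, a ubiquitin-conjugating enzyme with 6 accessions (r = 0.954), and Gata6, a primitive endoderm factor (r = 0.952). Gata6 had 18.7 CPM in dTAG and 0.536 in DMSO, and 2.75 without LIF and 1.37 with LIF.

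Related gene groups are given beside the ZIC genes as counts. Over all tested genes, 20.1% were called higher and 20.3% lower in dTAG, and 34.0% higher and 34.4% lower without LIF. These shares belong beside the counts of every list below. Of the 4 tested GLI and GLIS genes, the relatives by zinc finger sequence, 1 rose and 1 fell in dTAG (median log2 fold change -0.27, against 0.00 over all genes). Gli2, a hedgehog effector, fell to 35.1 ± 0.603 CPM in dTAG, against 106 ± 1.78 CPM in DMSO, and Gli3, mostly a repressor, had a log2 fold change of 0.57 (SE 0.09). Without LIF, 2 rose and 1 fell (median 0.53, against -0.02), with Gli3 4.12-fold higher and Gli2 2.57-fold lower. Neither Gli2 nor Gli3 therefore followed Zic2 in both comparisons. Gli1 had the directions of Zic2, but its change in dTAG was not called (log2 fold change -0.46, SE 0.22, edgeR adjusted p = 0.11). Without LIF its log2 fold change was 0.95 (SE 0.20, edgeR adjusted p = 0.00012).

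Of 23 formative pluripotency genes 16 were tested, and 15 rose and 0 fell without LIF (median 3.81), while 4 rose and 6 fell in dTAG (median -0.43). Utf1 fell 6.71-fold in dTAG, whereas Sox11 and Cldn6 rose 6.08-fold and 4.31-fold. Without LIF the kinase gene Pim2 rose 22.3-fold and Sox4 13.9-fold. Of 26 early neural ectoderm factors 13 were tested, and 10 fell and 0 rose in dTAG (median -1.43), against 4 that rose and 7 that fell without LIF (median -1.70). Over all tested genes 20.1% were higher and 20.3% lower in dTAG, and 34.0% higher and 34.4% lower without LIF. Olig2 had 1 read in dTAG against 321 in DMSO. Sox2, which is also on the list of ES cell markers below, fell 2.24-fold in dTAG and the midbrain gene En2 4.98-fold. Without LIF Sox2 fell 4.12-fold, while Pou3f1 and Sox3 rose 15.4-fold and 25.7-fold. Pax6, which marks committed neural progenitors, was listed at 0 in all libraries, but it is split over 8 accessions.

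Of 20 genes of the dorsal neural tube and neural crest, the regions where Zic1 is known, 12 were tested, and 4 rose and 3 fell in dTAG (median 0.06). Msx1, a roof plate factor and BMP target, was at 56.7 ± 1.63 CPM in dTAG against 2.66 ± 0.404 CPM in DMSO, a 21.7-fold rise, and Msx2 rose 5.72-fold. Foxd3, a factor of ES cells and neural crest, fell 12.9-fold. Pax7 and Wnt1, defining genes of the dorsal neural tube with 1 accession each, had 0 reads in dTAG and in DMSO, and Wnt1 had 0 in the WT line too. Lmx1a, also of this list, had 22 reads over all libraries and 0 in dTAG. Pax3, a factor of the dorsal neural tube and neural crest with 2 accessions, had 8 reads, all in dTAG. Without LIF 6 rose and 2 fell (median 1.16), with Msx2 4.38-fold higher and Wnt3a 26.7-fold lower. The summed level of this list was 94.6 to 95.6 CPM in dTAG against 29.4 to 30.5 in DMSO, and 64.5 to 66.1 without LIF against 33.0 to 34.6 with LIF. Most of the dTAG sum was Msx1 at 56.7 CPM and Msx2 at 16.5 CPM, against 2.66 and 2.96 CPM in DMSO. The part of this list in the Zic1 result was not tested.

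Markers of the labelled cell type and of cells that could be mixed in were checked. The shares over all tested genes were again 20.1% higher and 20.3% lower in dTAG, and 34.0% higher and 34.4% lower without LIF. Of 10 ES cell markers 8 were tested, and 7 fell and 0 rose in dTAG, led by Tdgf1 (12.1-fold) and Tfcp2l1 (3.48-fold). Without LIF 6 fell, led by Tfcp2l1 (33.3-fold) and Klf4 (29.8-fold). The 2 that rose without LIF were Tdgf1 (log2 fold change 0.68) and Utf1 (2.08). The 10 ES cell markers summed to 2378 to 2395 CPM in dTAG against 6996 to 7066 in DMSO. Without LIF they summed to 2218 to 2256 CPM, against 7292 to 7305 with LIF. Nanog was listed at 0 and Esrrb had 1 read over all libraries. Nanog has 4 accessions and Esrrb 2, and a gene with several accessions that is listed at 0 is not read here as absent. Of 12 neuron markers, 3 rose and 1 fell in dTAG and 5 rose and 1 fell without LIF, among 7 tested. In dTAG Elavl3 rose 2.43-fold and Tubb3 1.2-fold, while Stmn2 fell 2.33-fold (median of the list 0.23). Nefl rose 2.86-fold without LIF (median of the list 1.52). Tubb3, higher in dTAG, was the 1 that fell without LIF (log2 fold change -0.47). The 12 neuron markers summed to 581 to 589 CPM in dTAG against 562 to 571 in DMSO. They summed to 505 to 513 CPM without LIF against 335 to 347 with LIF. Dcx, Elavl4, Rbfox3 and Syt1, with 4, 6, 6 and 8 accessions, were listed at 0 in every group. Fibroblast markers summed to 16.4 to 19.4 CPM in dTAG against 21.4 to 23.4 in DMSO, and 19.8 to 20.4 without LIF against 9.27 to 9.29 with LIF. Of 9 such genes 4 were tested, with 1 higher and 1 lower in dTAG and 3 higher and 0 lower without LIF, and Postn and Dcn, with 5 and 2 accessions, were listed at 0 throughout. The part of such cells in the ZIC results was not tested.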

How the data were processed

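Poly(A) RNA was sequenced as single 40-base reads from a strand-marking kit, per the labels' protocols. The authors deposited raw counts per RefSeq accession, 1 table per library. The submitters' processing notes name HISAT2, HTSeq and mm9, and the sources name no strand setting. Of 41565 accessions, 41325 were matched to a symbol through RefSeq (GRCm38) and 126 through GENCODE M21, and counts were summed per symbol. Counted reads per library ranged from 7221451 to 11447468. HTSeq's summary lines stayed out of all totals: reads without a feature were 10.4% to 14.9% of unique alignments, and ambiguous reads 42.5% of counted plus ambiguous reads.

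Counts were tested in edgeR 4.0.16 (R 4.3.3) with TMM, filterByExpr and glmQLFTest, in 1 fit of 4 groups with 4 residual degrees of freedom, and the Benjamini-Hochberg adjustment ran over all 10311 tested genes. SE was taken as log2 fold change over root F. The pipeline was tested on simulated data. Alternatives were DESeq2 1.42.0, other scaling and filters, left-out libraries and others. The labels name no separate cultures, so p-values measure the spread between libraries, which may be technical. Replicates differed by more than sampling noise (chi-square over degrees of freedom 1.77 to 4.5).

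Named genes were the 4 members, the 3 members of each list with the smallest adjusted p in either comparison (a part of these is printed), the 3 genes most correlated with each tested member (prior count 2), 2 neighbours on each side of a pair, and Pou5f1. The members and lists were chosen with earlier results of these data known. Intervals and floors cover counting error only.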

Additional observations from a re-analysis of the deposited data

Results flagged for a closer look

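For Zic1, Zic2 and Zic5 the response to dTAG differed from the response to LIF withdrawal, by a test of the difference itself in edgeR. The difference in log2 fold change was 4.54 for Zic1, which was higher in dTAG in 2 of 2 libraries and overlapped between no LIF and LIF. It was -4.15 for Zic2 and -3.64 for Zic5, both of which were lower in dTAG in 2 of 2 libraries and higher without LIF in 2 of 2 libraries. Of all tested genes, 55.0% passed the same test, and Zic1 was among those tested only through its dTAG libraries. The dTAG libraries lay wholly above the DMSO libraries for 34.8% of tested genes and wholly below for 35.4%. The libraries without LIF lay wholly above those with LIF for 40.3%.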

How the results depend on the processing

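Of 187 alternative values for Zic1, Zic2 and Zic5 over the 4 contrasts, 183 kept their direction and their side of the threshold. The other 4 were all values of Zic1 at the low read counts outside dTAG, with 1 library left out, and in those fits the lone library of a group is assumed to vary like the others. For DMSO against LIF they ranged from -5.90 (adjusted p = 0.016, without DMSO replicate 2, where the group has 0 reads, so the size is no measured fold) to 0.16, and for no LIF against LIF from -0.37 to 0.31, with a positive value without WT LIF replicate 1 and 0.03 without no LIF replicate 1. For dTAG against DMSO, left-out libraries gave 3.71 to 9.76 for Zic1 (the upper end again with 0 DMSO reads), -2.16 to -1.96 for Zic2 and -2.91 to -1.99 for Zic5. The number of genes called for DMSO against LIF was 4191 and became 2742 with DESeq2. Deviations of same-numbered libraries correlated at 0.09 (OCT4-FKBP) and 0.07 (WT), so the numbers were not taken to pair samples. With the replicate number as a block, dTAG against DMSO gave 4.44 for Zic1, -2.06 for Zic2 and -2.39 for Zic5, no LIF against LIF gave 2.10 for Zic2 and 1.27 for Zic5, and no ZIC call changed. For Pou5f1 in dTAG the block gave a call (0.17, edgeR adjusted p = 0.044), as did a fit of the 4 OCT4-FKBP libraries (0.17) or leaving out WT LIF replicate 2 (0.18). For a part of the other named genes, 797 of 818 alternative values kept their direction and call, 17 lost a call and 4 gained one. No alternative values were taken for the rest, such as Wnt3a, with 3 reads without LIF against 90 with LIF. Of the 17, 12 were of 2610035F20Rik and the others of Sox3 and Sox4 in dTAG, and the 4 were those of Pou5f1 and Gli1 in dTAG (-0.86 without dTAG replicate 2). The difference of responses uses all 8 libraries, so the fit on fewer libraries gives no row there, and Zic1 could not be fitted in only the libraries of no LIF against LIF or of DMSO against LIF because it did not pass the filter. These alternatives for the other named genes were chosen after seeing the data. Depth limits Zic4 and the values of Zic1 outside dTAG most, above all in DMSO, with 10 Zic1 reads.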
